A study of Danio rerio with 6 samples.

Results

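The genes described here encode the proteasome and part of the enzyme system that attaches and removes ubiquitin. They were taken by symbol from the deposited peak lists: every symbol starting with psma to psmg, with ube2, or with usp and a digit. This gave 101 genes of the 10068 that the lists name, 50 on the proteasome side and 51 on the ubiquitin side. The proteasome side held 8 alpha and 11 beta subunits of the 20S core, 7 ATPases and 15 other genes of the 19S cap, 4 activators, 1 inhibitor, 3 assembly chaperones and psmc3ip, a meiotic recombination factor whose symbol only resembles a subunit. The ubiquitin side held 33 E2 genes, 17 genes grouped as ubiquitin-specific proteases and usp6nl, which encodes a GTPase-activating protein for Rab proteins and no protease. The 17 were grouped by symbol only, and whether each product, such as that of usp39, is an active protease was not checked. The symbols are those of the deposited lists, and 6 of them differ from those in the RefSeq table of the GRCz12tu assembly. There psmb10 is psmb13a, psmb11 is psmb12, psmb8 is psmb8a, psma6b is psma6l, psma2 is psma2a and ube2w is ube2wa, so mammalian roles of PSMB10 and PSMB11 were not carried over. Of the 147 protein-coding genes of that table whose symbols match, 46 were not named by the lists and were not analysed here.

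The proteasome is a barrel-shaped protease whose catalytic beta subunits sit inside the 20S core, behind rings of alpha subunits. The 19S cap recognises proteins tagged with ubiquitin, and its ATPases unfold them and thread them into the core. Ubiquitin is activated by an E1 enzyme, carried by E2 conjugating enzymes and passed to substrates, usually with an E3 ligase, while deubiquitinases take it off again. Most of these genes are active in nearly every cell type, and heart muscle depends on the pathway to turn over damaged and contractile proteins.

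Histone H3 lysine 9 acetylation (H3K9ac), a mark found at active promoters, and trimethylation of the same residue (H3K9me3, labelled H3K9M3), a mark of silent chromatin, were mapped by chromatin immunoprecipitation and sequencing in zebrafish heart tissue. Fish were 1 to 1.5 years old, and hearts were left uncut or had the tip of the ventricle removed and were collected 6 or 9 days after this amputation (dpa). Each of the 6 libraries was the only one for its mark and time. The labels give no strain, no sham operation, no number of hearts per library and no control library.

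Because there was 1 library for each mark and time, no difference below has a replicate check. A difference compares 2 libraries and not 2 conditions, and no p is given. A promoter peak is a deposited peak that overlaps the transcription start site (TSS) by 2 kb on either side. Its tags are the reads inside the called peak, summed where a promoter had more than 1 peak. The intervals in brackets are exact 95% intervals that cover counting error only. A peak that was not called adds no tags to a sum, and the intervals do not allow for this. In whole tissue, fewer cells carrying a mark and less of the mark per cell cannot be told apart.

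The H3K9ac lists held 16264, 17525 and 17223 peaks in uncut, 6 dpa and 9 dpa hearts, with 1902151 to 2206341 tags inside them. The H3K9me3 lists held 4488, 6216 and 4771 peaks with 245779 to 541481 tags. An H3K9ac promoter peak was called in all 3 libraries for 8009 genes, and their median was 0.11 higher in tags (log2) at 6 dpa than uncut and 0.22 higher at 9 dpa. Log2 changes below are relative to that median gene, and a gene was called when it lay past a fold of 1.5 from it. Scaling to the background recovered from the peak scores, which was 14.6, 11.3 and 15.0 reads per kb in the H3K9ac libraries, would add 0.49 to every 6 dpa change and 0.18 to every 9 dpa change, and would take 0.31 from every change of 9 dpa against 6 dpa. Under that scaling the medians of all the proteasome and ubiquitin roles lie above 0 at 6 dpa. The sign of a 6 dpa change that lies below 0 by less than 0.49 therefore rests on the choice of scale. So does that of a change below 0 by less than 0.18 at 9 dpa against uncut. The same holds for a change above 0 by less than 0.31 at 9 dpa against 6 dpa.

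H3K9ac covered nearly every one of these promoters, before and after amputation. A promoter peak was present at all 3 times in 98 of 101 genes (97.0%), against 8009 of 10068 genes over the lists (79.5%), which name only genes that the authors tied to a peak. The exceptions were psmb9a, usp22 and psmc3ip. The psmc3ip promoter had a peak at 6 dpa only, with 40 tags over 1004 bp, and so was the 1 gene gained at 6 dpa against uncut, where 5.96% of all genes were gained, and the 1 lost at 9 dpa against 6 dpa, where 4.19% were lost. No other gene of the 101 was gained or lost. The shares over all genes were 1.88% lost at 6 dpa against uncut, 4.64% gained and 2.06% lost at 9 dpa against uncut, and 2.69% gained at 9 dpa against 6 dpa.

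Peaks sat where H3K9ac is usually found, just inside the transcribed side of the start. In uncut heart the main peak ran, by the medians of its edges, from -510.5 bp to 1096.5 bp around the TSS, against -549 bp and 1015 bp over all genes. The highest point lay downstream of the TSS in 80 of 98 genes in uncut heart (81.6%) and in 83 of 98 at both later times (84.7%). The shares over all genes were close, at 78.8%, 78.9% and 79.3% in uncut, 6 dpa and 9 dpa heart. The main peak covered the TSS itself in 96 of 98 genes at each time (98.0%), against 92.2% over all genes in uncut heart.

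The ubiquitin genes carried more tags than the proteasome genes at each time. Their median promoter had 151.5, 170 and 178.5 tags in uncut, 6 dpa and 9 dpa heart, against 120, 107 and 129.5 for the proteasome genes and 126, 135 and 147 for all genes. Per kb of called peak, which allows for peak width, the medians were 77.3, 90.0 and 92.5 tags for ubiquitin genes and 72.4, 73.2 and 78.0 for proteasome genes, against 72.1, 75.9 and 80.2 for all genes. The ubiquitin genes were above the median of all genes per kb in 33, 35 and 33 of 50 cases, and the proteasome genes in 24, 20 and 21 of 48. The ranges overlapped widely, from 40.8 to 119 tags per kb for proteasome genes and from 50.2 to 110 for ubiquitin genes in uncut heart. Per kb the higher ubiquitin medians lay with the 33 E2 genes, at 79.5, 91.4 and 94.8. The 16 ubiquitin-specific proteases with peaks had 71.6, 66.2 and 74.2, below the proteasome medians at each time. On the proteasome side the 10 beta genes had 83.2, 86.3 and 89.0 and the 8 alpha genes 61.9, 61.2 and 72.5.

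The densest promoters came from different parts of the pathway. By the mean over the 3 libraries they were psmg3, a chaperone of core assembly, with 137 tags per kb, psme4b, which encodes a PA200-type activator, with 128, psmb8 with 125, the E2 gene ube2z with 120 and usp25 with 117. The sparsest were the alpha subunit genes psma1 with 42.3 tags per kb and psma4 with 47.7, ube2c, whose human product works with the anaphase-promoting complex, with 47.0, the ATPase gene psmc3 with 52.5 and usp2a with 54.9. All of these had a peak in all 3 libraries.

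**Figure D1:**
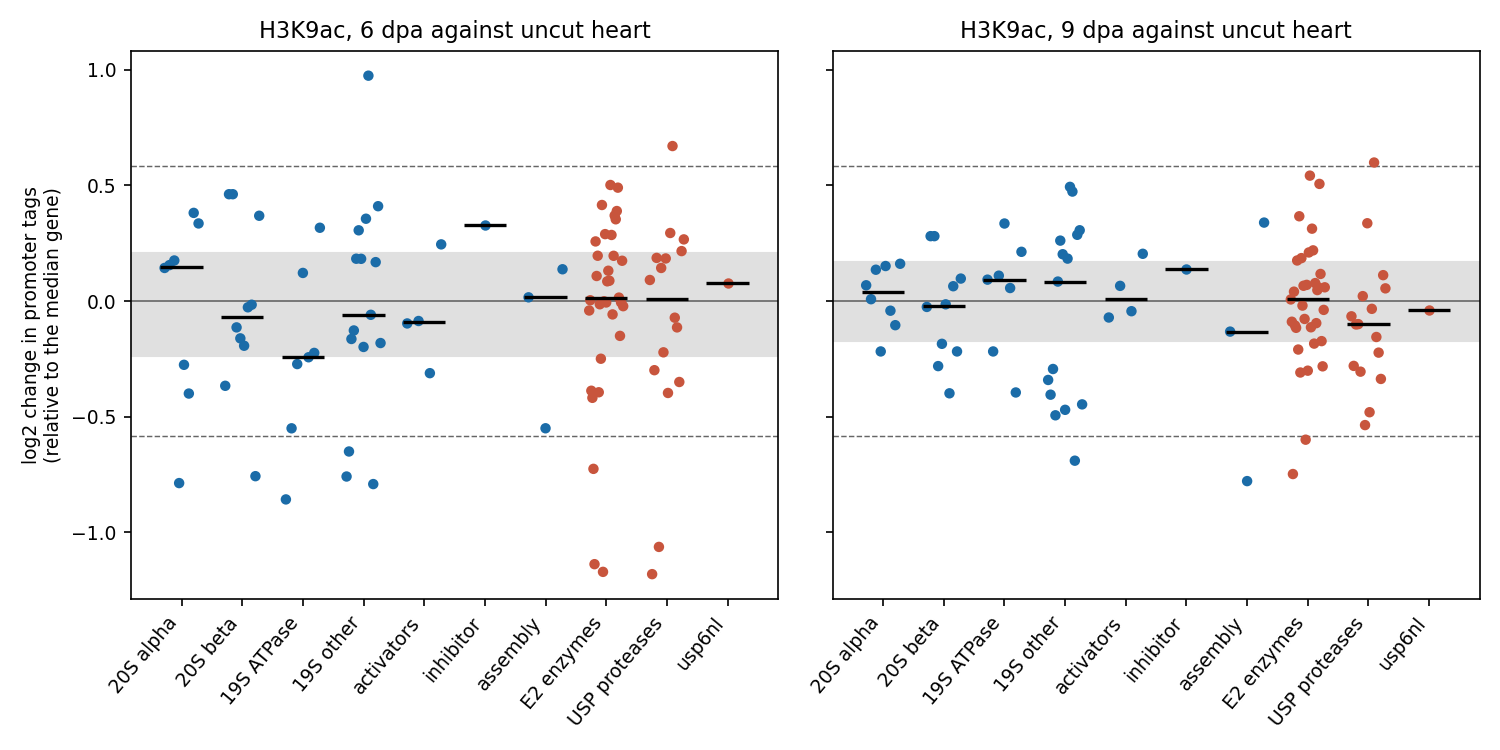
Log2 change in H3K9ac promoter tags of 98 genes relative to the median gene, at 6 dpa (left) and 9 dpa (right) against uncut heart, by role; 1 library per time. Points are genes (blue, proteasome; red, ubiquitin), black bars are group medians, the grey band runs from the lower to the upper quartile of all 8009 genes, and dashed lines mark a fold of 1.5; at 6 dpa 11 points lie below the lower line and 2 above the upper one, and at 9 dpa 4 and 1.

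The alpha subunits form the outer rings of the core and its gate. Their median log2 change was 0.15 at 6 dpa and 0.04 at 9 dpa, with 5 of 8 genes above 0 at each time, but per kb the 6 dpa median was -0.07. The gene nearest the 6 dpa median, psma1, had 41, 49 and 50 tags in uncut, 6 dpa and 9 dpa heart. The other end was psma4, with 67, 42 and 67 tags, which was lower at 6 dpa by a log2 change of -0.79 (-1.38 to -0.21). The uncut and 9 dpa counts of psma4 were equal and its 6 dpa count stood below both.

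Among the beta subunits, the genes of the standard catalytic sites had different values at 6 dpa. The psmb6 promoter had 199, 213 and 242 tags and psmb5 had 161, 171 and 142, with log2 changes at 6 dpa of -0.02 (-0.30 to 0.27) and -0.03 (-0.35 to 0.29). The psmb7 promoter, whose product carries the trypsin-like site, had 125, 80 and 125 tags, a change of -0.76 (-1.18 to -0.34). Its peak was 2014, 1592 and 2289 bp wide, and the density of tags was also lowest at 6 dpa, at 50.3 per kb against 62.1 and 54.6. The other standard beta genes psmb1, psmb2, psmb3 and psmb4 had 6 dpa changes between -0.37 and -0.11, within counting error of 0.

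A cluster on chromosome 19 (danRer10) holds the beta subunit genes psmb8, psmb10, psmb11 and psmb9a, which are linked to the major histocompatibility genes in zebrafish. The TSS of psmb8 lies at 7191655, psmb10 and psmb11 start 62 bp apart in opposite directions at 7196250 and 7196312, and psmb9a starts at 7201508. The shared psmb10 and psmb11 peak (chromosome 19, 7195245 to 7197283 in uncut heart) had 167, 249 and 236 tags over 2039, 2277 and 2086 bp. The psmb8 peak had 176, 246 and 219 tags. Both peaks were higher at 6 and 9 dpa than uncut, with 6 dpa log2 changes of 0.46 (0.17 to 0.75) and 0.37 (0.08 to 0.66), short of a fold of 1.5. At 9 dpa the changes in tags were smaller, 0.28 and 0.10, both within counting error of 0. The density of both peaks was higher too, by 0.34 and 0.19 at 6 dpa, and stayed so at 9 dpa at 0.32 and 0.15. Since psmb10 and psmb11 share 1 peak, they are a single measurement. The psmb9a promoter had no peak in any library. The nearest H3K9ac peak lay 2623, 2588 and 2739 bp from its start, past the end of the gene, with 187, 258 and 211 tags. Whether that peak belongs to psmb9a was not tested.

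Of the 7 genes of the 19S ATPase ring, 1 was called lower at 6 dpa, where 7.14% of all genes were. None was called higher, where 3.46% of all genes were. Their median log2 change was -0.24, with 5 of 7 below 0 in tags and 6 of 7 below 0 per kb, where the median of all genes is 0 by construction. With background scaling the median turns to 0.25. The gene nearest the median, psmc4, had 105, 96 and 127 tags. The one called lower was psmc1a, with 129, 77 and 160 tags, a change of -0.86 (-1.29 to -0.44) at 6 dpa and of 0.95 (0.55 to 1.36) at 9 dpa against 6 dpa. Its copy psmc1b had 134, 99 and 134 tags, a change of -0.55 (-0.94 to -0.17), and the psmc6 promoter went the other way with 89, 120 and 120. At 9 dpa against uncut the ATPase median was 0.09, with 5 of 7 above 0.

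The other 19S genes had the widest spread on the proteasome side, from -0.79 to 0.98 at 6 dpa around a median of -0.06. The highest was psmd4b, 1 of 2 genes here for the ubiquitin receptor of the cap, with 47, 100 and 77 tags over 807, 1511 and 1178 bp. Its log2 change was 0.98 (0.46 to 1.51) in tags but 0.11 per kb, so most of it lay in the width of the peak. At 9 dpa its change was 0.49 (-0.05 to 1.05), within counting error of 0. Lower at 6 dpa were psmd6 with 136, 85 and 98 tags, the scaffold gene psmd1 with 183, 117 and 168, and psmd10 with 148, 102 and 130. The product of psmd10 in mammals is gankyrin, which helps the cap assemble and leaves the finished particle. The psmd6 promoter was the only 1 of these also called lower at 9 dpa, at -0.69 (-1.08 to -0.31). The gene nearest the group median, psmd5, had 52, 54 and 84 tags, and psmd9, another assembly factor, had 109, 104 and 93 tags in a peak that was 1550, 909 and 1132 bp wide. The density of psmd9 was therefore highest at 6 dpa, at 114 tags per kb against 70.3 and 82.2.

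The 4 activators had 6 dpa changes from -0.31 to 0.25, and the 3 assembly chaperones from -0.55 to 0.14. The PA28 genes psme1 and psme2 had 84, 85 and 93 tags and 207, 211 and 252 tags, and psme4b had 191, 245 and 256. The inhibitor psmf1 had 136, 185 and 174 tags, a 6 dpa change of 0.33 (0.00 to 0.66). Among the chaperones that build the core, psmg1 had 212, 232 and 225 tags and psmg3 had 231, 275 and 340. The psmg2 promoter had 180, 133 and 122 tags over 2412, 1775 and 1647 bp, with changes of -0.55 (-0.88 to -0.22) at 6 dpa and -0.78 (-1.12 to -0.44) at 9 dpa. The density of psmg2 did not follow, at 74.6, 74.9 and 74.1 tags per kb.

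The 33 E2 genes had a median log2 change of 0.01 at 6 dpa in tags and 0.16 per kb, with 18 and 25 of 33 above 0, and a median change in width of -0.13. The gene nearest the median, ube2s, had 107, 117 and 135 tags. Among the highest at 6 dpa were ube2ka with 137, 210 and 198 tags, a change of 0.50 (0.18 to 0.82), and ube2r2, whose mammalian product works with cullin ligases, with 121, 184 and 200 tags, a change of 0.49 (0.15 to 0.83). The ube2r2 promoter stood as high at 9 dpa, at 0.51 (0.17 to 0.84), next to ube2j1, an E2 of the endoplasmic reticulum, with 108, 128 and 183 tags and a 9 dpa change of 0.54 (0.19 to 0.90). None of these reached a fold of 1.5. The ube2na promoter, whose product builds chains linked through lysine 63, had 158, 221 and 172 tags, highest at 6 dpa, and its 9 dpa change against 6 dpa was -0.47 (-0.76 to -0.17).

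Lower E2 genes stood further out. The ube2g1b promoter (chromosome 21, 17000303 to 17002185 in uncut heart) had 127, 61 and 140 tags over 1883, 1308 and 1509 bp. Its 6 dpa change was -1.17 (-1.64 to -0.72) in tags and -0.61 per kb. The ube2d2l promoter had 177, 87 and 190 tags over 2160, 1003 and 2168 bp, a change of -1.14 (-1.53 to -0.76) in tags and 0.01 per kb. So both had fewer than 100 tags at 6 dpa alone, but ube2g1b was sparser there and ube2d2l was as dense as before in a shorter peak. The ube2d2l gene and ube2d1b, described below, were added after their values were seen.

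The 16 ubiquitin-specific proteases with peaks had medians of 0.01 at 6 dpa and -0.10 at 9 dpa, with 8 and 5 of 16 above 0. The gene nearest the 6 dpa median, usp1, had 144, 166 and 160 tags. The usp16 promoter, whose human product removes ubiquitin from histone H2A, had 170, 88 and 160 tags over 2529, 1511 and 2201 bp, a 6 dpa change of -1.06 (-1.45 to -0.68). The usp25 promoter had 205, 245 and 242 tags over 2398, 1777 and 1895 bp, so its density was 85.5, 138 and 128 per kb. At usp22, which encodes the deubiquitinase of the SAGA coactivator complex, no promoter peak was called in any library, and the nearest H3K9ac peak lay 18013 to 18197 bp away. The usp6nl promoter, not a protease gene, had 99, 113 and 112 tags.

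Over all 98 genes at 6 dpa against uncut, 11 were called lower (11.2%), where 7.14% of all genes were, and 2 were called higher (2.04%), where 3.46% of all genes were. The 11 were 6 proteasome genes (psmc1a, psmd6, psma4, psmd1, psmb7 and psmd10) and 5 ubiquitin genes (usp12a, ube2g1b, ube2d2l, usp16 and ube2d1b), and the 2 were psmd4b and usp37. The median change was -0.07 for the 48 proteasome genes and 0.05 for the 50 ubiquitin genes. All 11 counting intervals lay below 0, but the 11 were picked by these same counts, so this is no separate support. All 11 changes also stayed below 0 with background scaling, but this would hold for any gene called lower. Background scaling adds the same 0.49 to every 6 dpa change, which is less than the log2 of the fold that a call required. Under that scaling 3 of 98 were past the fold on the lower side and 41 on the higher side. The shares over all genes under that scaling are not given here.

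**Figure D2:**
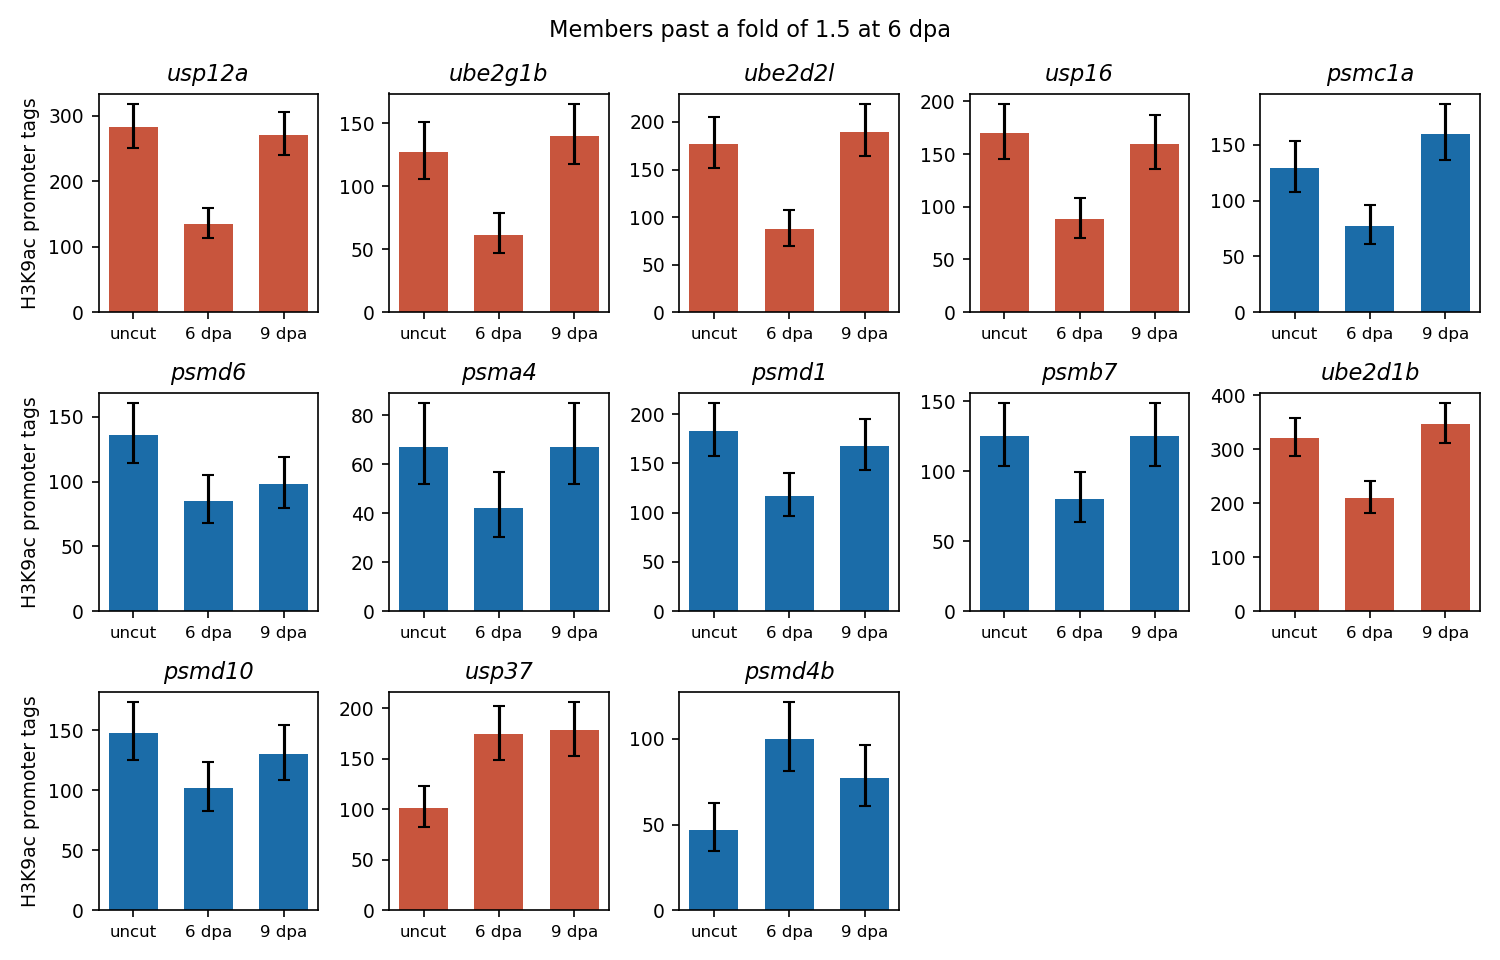
H3K9ac promoter tags in each library for the 13 genes past a fold of 1.5 at 6 dpa (blue, proteasome; red, ubiquitin). Bars are counts from 1 library, error bars are exact 95% Poisson intervals (counting error only), and each panel has its own axis from 0; the first 11 panels have their lowest bar at 6 dpa, and usp37 and psmd4b have their lowest in uncut heart.

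The lower genes had narrower peaks, though psmd10 hardly so. In all 11 the called peak was narrower at 6 dpa than uncut, as it was in 545 of the 572 lower genes overall (95.3%). Per kb 9 of the 11 were below 0, and the share among the 572 is not given here. The 11 were picked for lower tags, which are width times density, so neither count is a separate result about them. At psmd10 the width was nearly the same, 2614 bp in uncut heart and 2601 bp at 6 dpa. Per kb, 2 of the 98 genes were called lower, ube2g1b and psmd10, where 2.71% of all genes were. Per kb, psmd9 and usp25 were called higher, where 1.34% of all genes were. Neither share of the members (2.04%) stood far from that of all genes.

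**Figure D3:**
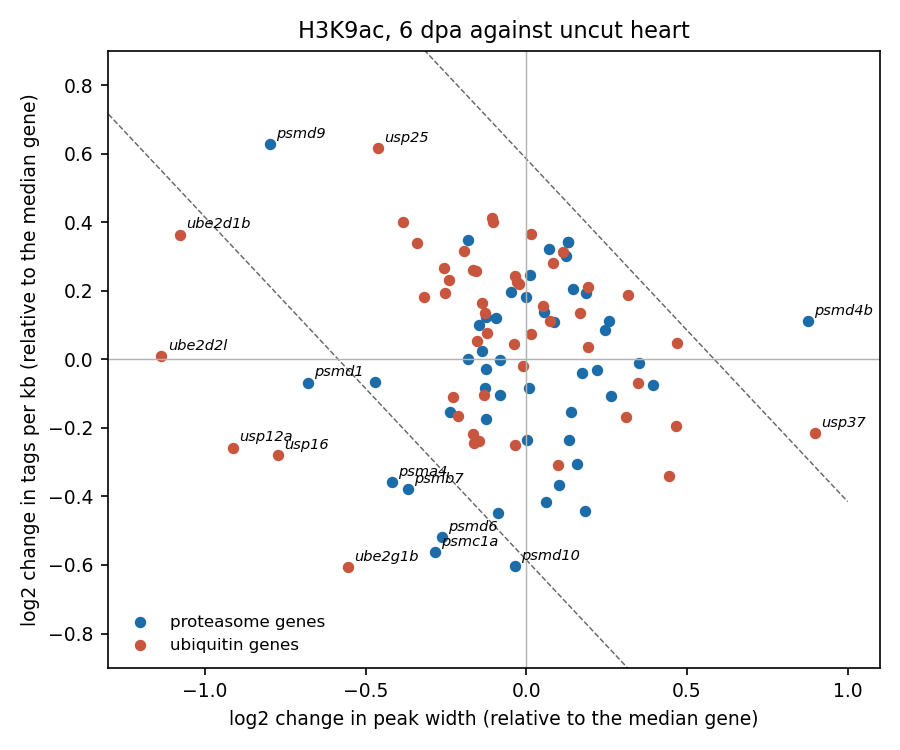
Log2 change in peak width (x axis) against log2 change in tags per kb (y axis) at 6 dpa against uncut heart, both relative to the median gene, for 98 genes. The dashed diagonals mark a fold of 1.5 in the sum of both changes. That sum is close to the change in tags but not equal to it, since each measure is centred on its own median. The ube2d2l point lies left at a density change of 0.01 and ube2g1b lies low at -0.61.

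Some of these promoters had peaks shared with a neighbouring gene. Of the 98 genes, 16 (16.3%) had a promoter peak that also lay in the promoter window of another gene the lists name, against 21.9% of all genes. The usp12a promoter had 283, 135 and 271 tags, a 6 dpa change of -1.18 (-1.49 to -0.88). Its own TSS peak had 141, 135 and 141 tags, and the difference was a second peak on the side of the ribosomal protein gene rpl21, with 142 tags in uncut and 130 in 9 dpa heart and none called at 6 dpa. At ube2d1b, a peak of 4247 bp with 321 tags reached across the start of tfam, the mitochondrial transcription factor gene 877 bp away, in uncut heart. It was 2052 bp with 210 tags at 6 dpa, short of the tfam start, and 4111 bp with 347 tags at 9 dpa, and ube2d1b was denser at 6 dpa (102 tags per kb against 75.6 and 84.4). At usp37 the upstream peak on the insig2 side had 101, 106 and 106 tags. The peak over the usp37 start itself was not called in uncut heart and had 68 and 72 tags at 6 and 9 dpa. Its scores there were 68.9 and 56.6, near the lowest score in the lists of 50. Human USP37 acts on cell cycle regulators. The whole promoter of usp37 had 101, 174 and 178 tags, and its 6 dpa change was 0.67 (0.31 to 1.04) in tags and -0.21 per kb.

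**Figure D4:**
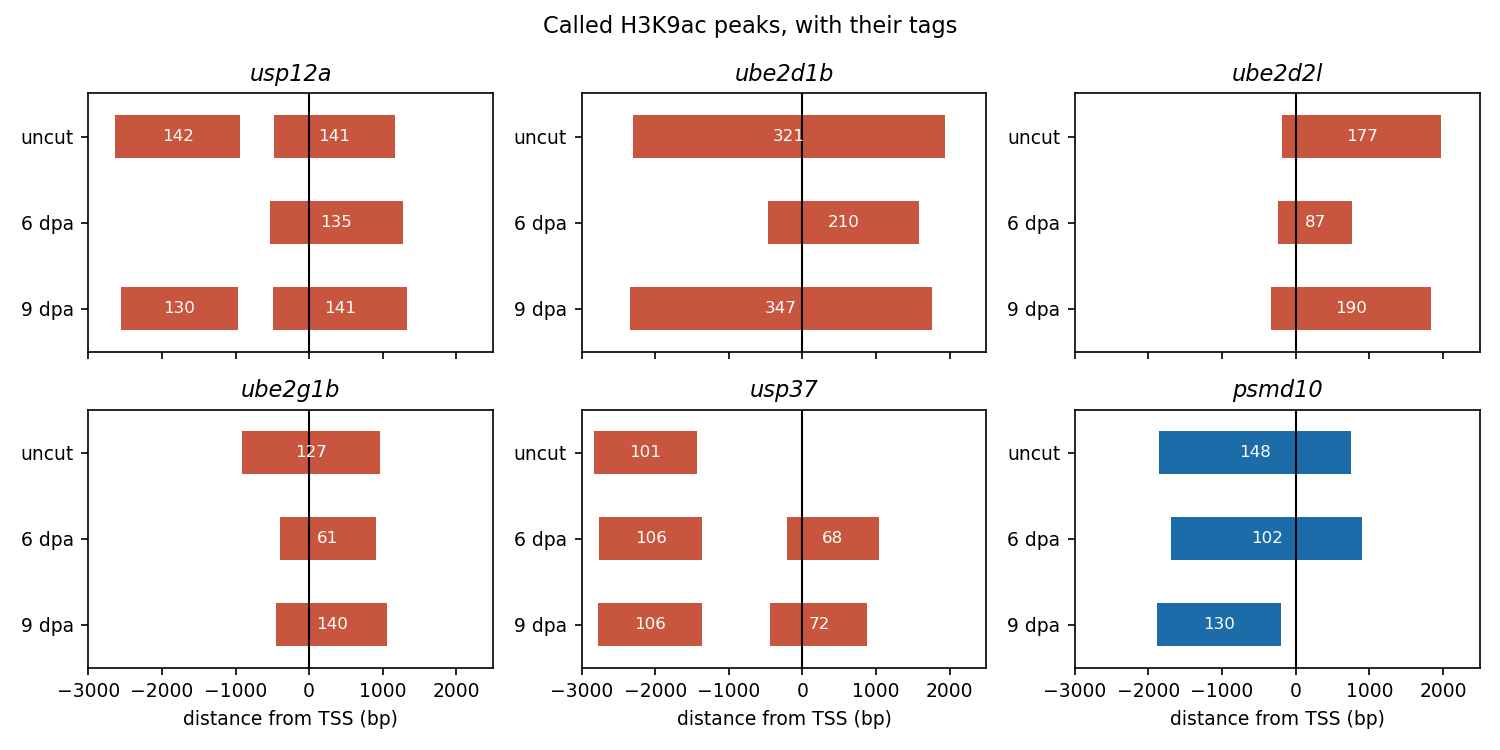
Called H3K9ac peaks around the TSS (vertical line) of 6 genes, in bp along the direction of transcription, with the tags in each peak, in uncut, 6 dpa and 9 dpa heart; 1 library per time. The upstream usp12a peak is missing at 6 dpa, the usp37 peak over the start is missing in uncut heart, and the 9 dpa peak of psmd10 ends upstream of its start.

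With only the peaks that cover the TSS counted, a choice made after the data were seen, 96 genes had such a peak at all 3 times. Of these, 10 were called lower at 6 dpa (10.4%), where 6.97% of all genes were, and 1 was called higher, psmd4b, where 2.95% were. The genes usp12a and psmd10 left the lower set, and psme3, the gene of the PA28 gamma activator, joined it. The psmd10 gene left because its 9 dpa peak did not cover the TSS. Its peak over the TSS still had 148 tags in uncut heart and 102 at 6 dpa. In uncut and 9 dpa heart 1 peak ran across the starts of psme3 and a divergent neighbour with 265 and 299 tags. At 6 dpa there were separate peaks of 143 and 88 tags, the latter over the psme3 start.

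At 9 dpa against uncut, 4 of 98 genes were called lower (4.08%), where 2.66% of all genes were, and 1 was called higher, usp37, where 3.08% were. The uncut library serves both this comparison and the one above. The 4 were psmg2, psmd6, ube2c and ube2g2. The ube2c promoter had 104, 86 and 72 tags, a change of -0.75 (-1.20 to -0.30). The ube2g2 promoter, whose product acts in degradation at the endoplasmic reticulum, had 172, 186 and 132 tags, a change of -0.60 (-0.94 to -0.26). The peak over its start had 100, 114 and 132 tags, and an upstream peak of 72 and 72 tags in uncut and 6 dpa heart was not called at 9 dpa. The medians were 0.06 for the proteasome genes and -0.04 for the ubiquitin genes.

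At 9 dpa against 6 dpa, which shares the 6 dpa library with the first comparison, 6 of 98 genes were called higher (6.12%), where 5.42% of all genes were. They were ube2g1b at 1.09 (0.65 to 1.55), ube2d2l at 1.02 (0.65 to 1.41), psmc1a at 0.95 (0.55 to 1.36), usp12a at 0.90 (0.60 to 1.21), usp16 at 0.76 (0.37 to 1.15) and ube2d1b at 0.62 (0.37 to 0.87). Per kb, ube2g1b stood at 0.92, psmc1a at 0.71, usp16 at 0.24 and usp12a at 0.02. The ube2d1b density was lower at 9 dpa than at 6 dpa (84.4 against 102 tags per kb), and the ube2d2l peak was wider (2168 against 1003 bp). The 1 gene called lower in tags was ube2g2, where 1.81% of all genes were. Among genes short of the fold, psmb7 had a change of 0.54 (0.12 to 0.96), psma6b of -0.49 (-0.97 to -0.01) and psmd11b of -0.37 (-0.79 to 0.05).

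Zebrafish keeps duplicates of many of these genes, and 10 pairs with symbols ending in a and b were compared within each library. The same member had more tags at all 3 times in 6 of the 10, and was denser per kb at all 3 times in 2, the pairs psmd4a and psmd4b and ube2ka and ube2kb. The 6 include psmd11a and psmd11b, whose ratio intervals held 1 in each library, and ube2ia and ube2ib, nearly equal at 9 dpa. For psmd4a and psmd4b the counts were 109 and 47 in uncut, 151 and 100 at 6 dpa and 144 and 77 at 9 dpa, with ratios of 2.32 (1.63 to 3.34), 1.51 (1.17 to 1.96) and 1.87 (1.41 to 2.50). Their densities were 74.3 and 58.2 tags per kb in uncut, 84.4 and 66.2 at 6 dpa and 86.3 and 65.4 at 9 dpa. For ube2l3a and ube2l3b they were 126 and 167, 131 and 207, and 129 and 205, so ube2l3b had more tags each time, but it was denser only at 9 dpa (94.3 tags per kb against 79.9). The pair that parted at 1 time was ube2g1a and ube2g1b, with 124 and 127 tags in uncut heart, 179 and 61 at 6 dpa and 151 and 140 at 9 dpa. The ratio of that pair was 0.98 (0.76 to 1.26), 2.93 (2.18 to 3.99) and 1.08 (0.85 to 1.37). Per kb the 2 genes stood at 59.5 and 67.4, 77.7 and 46.6, and 70.3 and 92.8 tags, so ube2g1a was the denser one at 6 dpa only. The ube2g1a peak also lay in the promoter window of spns3, whose start is 2501 bp away. The SUMO-conjugating E2 genes ube2ia and ube2ib had 232 and 162 tags in uncut heart, 250 and 186 at 6 dpa and 219 and 218 at 9 dpa, so their uncut ratio of 1.43 (1.17 to 1.76) was 1.00 (0.83 to 1.22) at 9 dpa. Under the current symbols psma6a and psma6b are not an a and b pair.

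**Figure D5:**
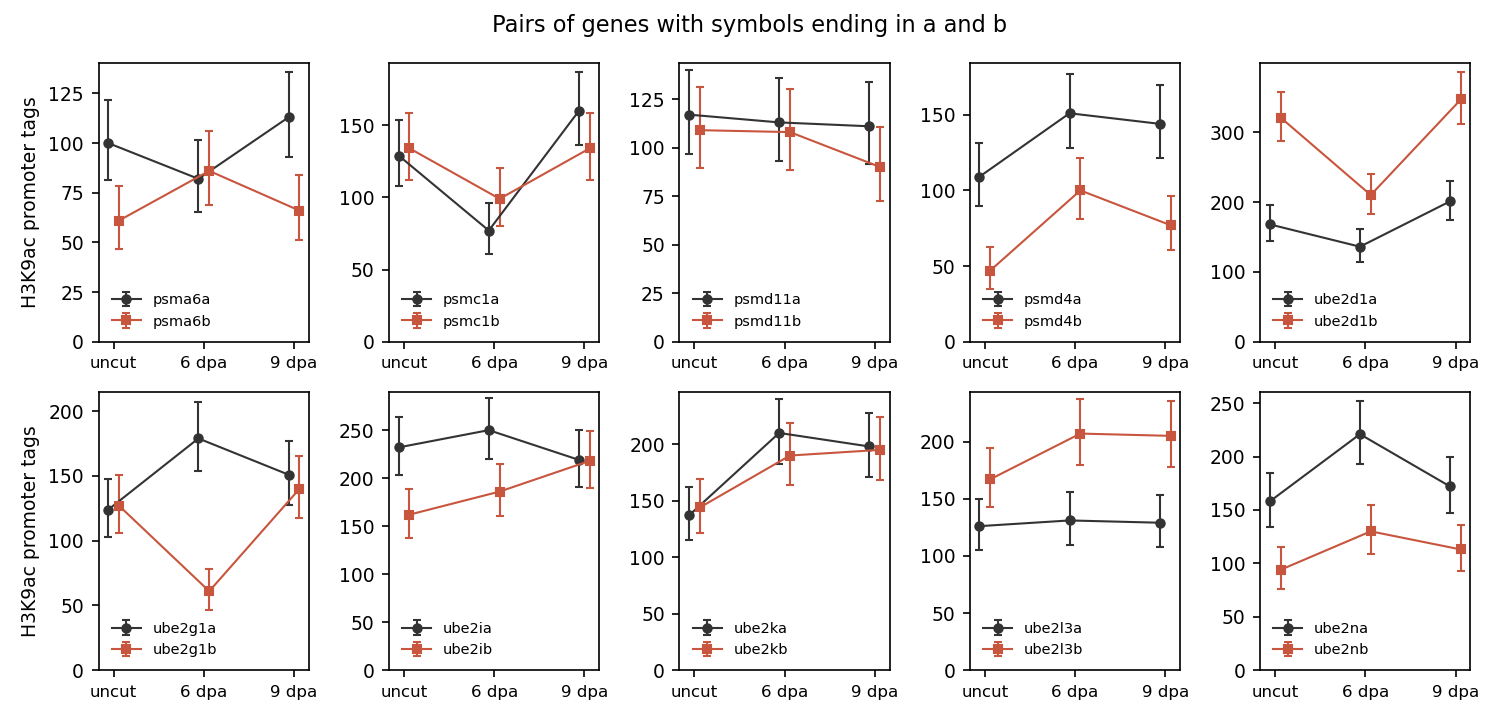
H3K9ac promoter tags of 10 gene pairs in uncut, 6 dpa and 9 dpa heart, with exact 95% Poisson intervals (counting error only); 1 library per time, and each panel has its own axis from 0. The lines of ube2g1a and ube2g1b start together at 124 and 127 tags and part at 6 dpa at 179 and 61, and ube2ia and ube2ib meet at 9 dpa at 219 and 218.

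H3K9me3 was rare at these promoters. A promoter peak was called at 2, 3 and 2 of 101 genes in uncut, 6 dpa and 9 dpa heart (1.98%, 2.97% and 1.98%), against 1.97%, 4.60% and 1.83% of all genes. The genes psmd3 and usp47 gained a peak at 6 dpa (3.24% of all genes gained one) and ube2e1 lost one (0.606% lost). At 9 dpa against uncut psmd3 and usp1 had gained one (0.646%) and psmb2 and ube2e1 had lost one (0.785%). At 9 dpa against 6 dpa usp1 had gained one (0.447%) and psmb2 and usp47 had lost one (3.22%).

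Most of these H3K9me3 peaks were small. The psmd3 peak had 75 tags (59.0 to 94.0) at 6 dpa and 68 (52.8 to 86.2) at 9 dpa, with its near edge at -331 and -527 bp from the start, and lay over the H3K9ac peak of the same gene by 1606 and 1111 bp. The psmb2 peak had 15 tags in uncut heart and 46 at 6 dpa and ended over 1 kb upstream of the start, outside the H3K9ac peak. The background of the H3K9me3 libraries also differed, at 4.10 and 10.8 reads per kb, and the density of the psmb2 peak was 5.41 times the background in uncut heart and 4.39 times at 6 dpa. The peaks of ube2e1 in uncut heart, usp47 at 6 dpa and usp1 at 9 dpa had 13, 21 and 20 tags, with scores of 52.7, 54.8 and 51.3 where the lowest score in the lists was 50. H3K9ac at psmd3 had 193, 182 and 162 tags, a 9 dpa change of -0.47 (-0.78 to -0.16). At ube2e1, whose H3K9me3 peak was called in uncut heart only, H3K9ac had 146, 181 and 219 tags, a 9 dpa change of 0.37 (0.06 to 0.68). H3K9ac had 93, 93 and 89 tags at psmb2, 144, 166 and 160 at usp1, and 175, 220 and 220 at usp47. A relation between the marks was not tested.

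Other genes of the pathway, were taken from 4 lists by function, 100 symbols in all. The deposited lists name 73 of them, and 72 had an H3K9ac promoter peak at all 3 times. The exception was uba1, the main ubiquitin E1, with 126 and 125 tags in uncut and 6 dpa heart and no peak called at 9 dpa. At 6 dpa 1 of the 72 was called higher, where 3.46% of all genes were, the E3 ligase gene itcha with 118, 207 and 193 tags. Called lower at 6 dpa were 4 of the 72, where 7.14% of all genes were. They were the deubiquitinase gene uchl3 at -0.88, anapc11, a subunit of the anaphase-promoting complex, at -0.86, the E3 ligase gene rnf8 at -0.80 and the cullin gene cul5a at -0.69. Median 6 dpa changes were -0.06 for 8 E1 and ubiquitin genes, 0.09 for 33 E3 genes, 0.06 for 17 shuttle and regulator genes and 0.14 for 14 other deubiquitinases.

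Markers of cell types moved between the same libraries by more than these medians. The cardiomyocyte list had a summed 485, 189 and 521 tags in uncut, 6 dpa and 9 dpa heart, with a peak at 5, 3 and 6 of its 6 named genes. The 3 of them with a peak at all times, myl7, vmhcl and cmlc1, had a median 6 dpa change of -0.85. The erythrocyte list had a summed 1092, 1474 and 1625 tags, with a median 6 dpa change of 0.44 over 5 genes, and of the leukocyte list only coro1a was named, with 39 tags at 6 dpa and no peak at the other times. The part of these cell types in the values above was not tested.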

How the data were processed

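ChIP-seq of H3K9ac and H3K9me3 in zebrafish heart was used as 1 peak list for each of 6 libraries. The submitters' processing notes name Bowtie2 2.2.5, MACS 1.4.2, DiffBind 1.16.3 and build danRer10, with no role or settings. Read totals and the control library are not given in the sources used here. In the deposited lists the tag count of a peak is not normalized, and the peak width is in bp, per the file headers. The deposited score is the -log10 of the caller's p multiplied by 10, and the deposited fold enrichment is the authors' ratio to the caller's background, per the file headers. RefSeq transcripts come with each peak; their TSS was taken as deposited.

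Peaks overlapping the TSS by 2 kb on either side (at least 1 bp) were summed per gene in Python 3.11.15 (pandas 2.3.3, numpy 2.4.6, scipy 1.17.1; matplotlib 3.10.9). Changes are log2 ratios of tags minus that of the median of 8009 genes. Intervals are exact conditional binomial for ratios, exact Poisson for counts and Wilson for shares, all at 95%. Those of medians, used only to judge the alternative settings, are taken from the ranks of the genes. The code was tested on simulated data. Genes were named as gained or lost, as the 5 highest and 5 lowest changes per comparison with the same sign per kb, as those with H3K9me3, as the 5 densest and 5 sparsest, and as each role's gene nearest its median; others, such as ube2d2l, ube2d1b, usp37, psmd1, psmd10, psmd9, psme3, itcha, anapc11, cul5a, rnf8, uchl3 and uba1, were chosen after their values were seen. Members and lists were chosen with earlier results of these data known. Promoter motifs and sequences were not analysed here. Windows, score minimum, list length, scaling, density and fold were varied.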

Additional observations from a re-analysis of the deposited data

How the results depend on the processing

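No paired analysis was possible because each mark and time had 1 library, and for the same reason no library could be left out in turn. Of 213 alternative values for 30 results, 133 kept the count within 1.5 times or the median within its interval. That interval is taken from the ranks of the genes and reflects the spread between genes. Scaled to the background, the medians at 6 dpa were 0.42 for proteasome and 0.54 for ubiquitin genes, at 9 dpa 0.24 and 0.14, and at 9 dpa against 6 dpa -0.35 and -0.40. With no scaling the 9 dpa medians were 0.28 and 0.18, and per kb the 9 dpa ubiquitin median was 0.056. The counts past the fold with background scaling were 41 higher and 3 lower at 6 dpa, 5 higher and 1 lower at 9 dpa, and 16 lower at 9 dpa against 6 dpa. Per kb they were 2 lower at 6 dpa, 0 higher and 0 lower at 9 dpa, and 0 lower at 9 dpa against 6 dpa. With a fold of 2 they were 0 higher and 4 lower at 6 dpa, 0 and 0 at 9 dpa, and 2 higher and 0 lower at 9 dpa against 6 dpa. With a 1 kb window 1 was higher at 6 dpa and 0 at 9 dpa, and with 5 kb 4 and 4. With scores of at least 100, 0 were higher and 2 lower at 9 dpa. Background scaling moves every gene in a comparison by the same amount. The shares of all genes past the fold under these alternatives are not given here, except per kb at 6 dpa. These counts therefore show how the calls depend on the setting and not how the members stand against other genes.

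With peaks covering the TSS, an alternative chosen after seeing the data, 1 was higher at 6 dpa, 0 at 9 dpa and 0 lower at 9 dpa against 6 dpa; 2 genes gained H3K9ac at 6 dpa, 1 gained and 1 lost it at 9 dpa, and 2 lost it at 9 dpa against 6 dpa. H3K9ac was gained by 2 at 6 dpa and 1 at 9 dpa with a 1 kb window, and also with only the peaks the authors annotated to the gene. With scores of at least 100, 2 gained and 2 lost it at 6 dpa, 2 gained and 1 lost it at 9 dpa, and 2 gained it at 9 dpa against 6 dpa. The shares of all genes that gained or lost a peak under these settings are not given here, so the counts show only how the calls depend on the setting.

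H3K9me3 counts are small, and the shares of all genes under the settings below are not given here. In uncut, 6 dpa and 9 dpa heart there were 0, 1 and 0 genes with scores of at least 100, and 1, 1 and 0 with peaks covering the TSS. A 5 kb window gave 4 uncut and 5 at 6 dpa, a 1 kb window 1 uncut, the authors' annotation 1 uncut and lists of equal length 1 at 9 dpa. Gains and losses were 4 and 3 at 6 dpa with 5 kb, 1 and 0 with scores of at least 100, and 1 gain with equal lists or with the TSS covered. At 9 dpa they were 0 and 0 with scores of at least 100, 0 and 1 with the TSS covered, 1 gain with equal lists, 4 losses with 5 kb, and 1 loss with 1 kb or the authors' annotation. At 9 dpa against 6 dpa they were 0 and 1 with scores of at least 100, with equal lists and with the TSS covered, 4 losses with 5 kb, and 1 loss with 1 kb or the authors' annotation. The cause was not tested in these cases. Depth limits what can be seen: the median promoter had 126 to 147 tags, and at psma1, with 41 tags in uncut heart, the 6 dpa interval runs from -0.49 to 0.78.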
